A study of Rattus norvegicus with 2 samples.

Results

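Oxidative phosphorylation subunits are the proteins of the mitochondrial inner membrane that pass electrons to oxygen and use the resulting proton gradient to make ATP. The members described here are the nuclear-encoded ones, taken by gene name: every probe set whose array annotation holds a symbol of an NDUF subunit (families A, B, C, S and V), SDHA to SDHD, the UQCR genes, CYC1, CYCS, the COX4 to COX8 families or the ATP5 genes. This gave 91 gene symbols of 21357 and 175 probe sets of 54613, and the naming rule itself uses no measured value. UQCRHL shares its probe set with UQCRH and is counted with it, which leaves 90 names. Of these, 81 name subunits, while 9 name antisense or divergent transcripts, readthrough products, pseudogenes or the ATPase inhibitor ATP5IF1, and these 9 are read by 14 probe sets.

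Gene expression was measured in the rat myeloma line YB2/0 on 2 human whole-genome Affymetrix arrays, 1 for a control and 1 for a sorted sample. The cells were grown in culture, and no drug treatment is described for either sample. By the methods, the starting population carried a retroviral cDNA library of human umbilical vein endothelial cells, was stained with patient IgG, was sorted in repeated rounds and was cloned, while the comparison cells had received no library. The labels give control or sorted rat myeloma cells, each after a different code that is not explained, and name neither a serum nor a clone. The probes were designed on human genes, so a rat transcript was measured as far as it hybridised to them, and the arrays cannot separate a rat transcript from a human cDNA of the same gene. In bulk RNA, fewer cells expressing a gene and less RNA per cell cannot be told apart either.

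In the respiratory chain, complex I takes electrons from NADH and complex II from succinate. Both hand them to ubiquinone, from which complex III passes them to cytochrome c, and complex IV uses them to reduce oxygen. Complex V, the ATP synthase, lets protons flow back and couples this to ATP production. Mitochondrial DNA encodes part of the cores of complexes I and III, the catalytic core of complex IV and part of complex V. The nuclear genes supply the remaining subunits, some of them as tissue-specific isoforms. Myeloma cells are known to use oxidative phosphorylation as well as glycolysis.

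Each probe set came with a MAS5 signal, an intensity on a linear scale, and with a call on whether its transcript was detected (Present), doubtful (Marginal) or not detected (Absent). The call compares each matching probe with a mismatched partner, so a bright probe set can still be Absent. Of the 175 members, 49 (28.0%) had a Present call on one array or both, against 12.5% of all probe sets, and 25 (14.3%) were Present on both, against 4.68%. Subunit transcripts were therefore detected more often than probe sets at large on this array, a description for which no test was made. In control cells 34 were Present and in sorted cells 40. Present in control cells alone were 9, and in sorted cells alone 15, while over the whole array the order was the other way, with 2319 and 1946. A further 6 were Marginal at best, and 120 were Absent on both arrays, with signals from 11.7 up to 3350 (control) and from 15.0 up to 4760 (sorted).

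**Figure D1:**
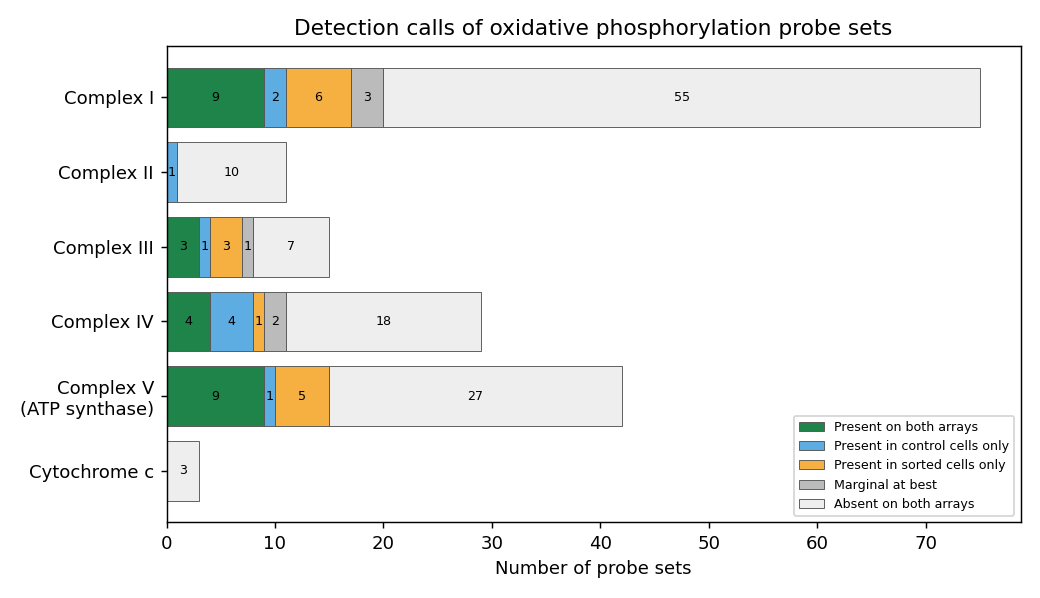
Number of oxidative phosphorylation probe sets (horizontal axis) in each complex (vertical axis), coloured by detection call on the control and the sorted array. Of 75 complex I probe sets 9 were Present on both arrays and 55 Absent on both, and of 42 complex V probe sets 9 and 27.

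The share detected varied between the complexes and with the type of probe set. At least 1 Present call was found for 7 of 15 probe sets of complex III (46.7%), 15 of 42 of complex V (35.7%), 9 of 29 of complex IV (31.0%), 17 of 75 of complex I (22.7%), 1 of 11 of complex II (9.09%) and 0 of 3 of cytochrome c. The suffixes _s_at and _x_at mark probe sets that may also bind other transcripts. They refer to human transcripts. Probe sets with plain _at, called gene-specific below, were not examined for binding to other rat transcripts. Members with these suffixes were Present more often, with 17 of 48 (35.4%) and 10 of 22 (45.5%), than those with plain _at, with 22 of 104 (21.2%). Over all probe sets these shares were 17.1%, 17.0% and 10.6%. Of the 81 subunit genes, 36 had a Present probe set and 45 had none.

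With 1 array per condition there was no replicate error and no test. A simple 2-fold rule was therefore used, in which the brighter array had to have at least 2 times the signal of the dimmer array and a Present call, and the direction is that of sorted against control cells. By this rule 4 members were higher, NDUFS3, NDUFB8, UQCRC2 and COX6A1, and 4 probe sets of 3 genes were lower, NDUFS8 with 2 probe sets, UQCRH and UQCR11. Either count is 8.16% of the 49 members Present on at least 1 array, against 12.9% for higher and 14.1% for lower over the 6821 such probe sets of the array. No test was made of these shares, and a few probe sets more or fewer would bring them level. The 4 lower probe sets came down to 1 over gene-specific probe sets, to 1 over probe sets with 1 symbol and to 2 with each gene at its brightest probe set, while the higher count was 4, 4 and 3. With an Absent call required on the dimmer array, 2 were higher and 2 lower. The other 41 of 49 differed by less than 2-fold or had no Present call on the brighter array. As a measure of spread at the hybridisation step alone, the 18 probe sets of the hybridisation spikes, added in fixed amounts, had log2 ratios of -0.58 to 0.57. The spread between probe sets of 1 gene Present on at least 1 array, given below, reached 2.57. It reached 0.69 in genes where all the probe sets counted were Present on both arrays.

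Among the 25 members Present on both arrays, the log2 ratio of sorted over control signal had a median of 0.31 and ranged from -2.13 to 1.39. It was above 0 for 16 of them (64.0%) and below 0 for 9. Over the 2556 probe sets Present on both arrays the median was 0.11, and 57.5% were above 0. The quartiles of the members were -0.28 and 0.73, and those of all such probe sets -0.29 and 0.49. The ATP synthase members made up 8 of the 16 above 0. Over the gene-specific probe sets ending in _at and Present on both arrays, the members had a median of 0.05 with 4 of 8 above 0, against 0.09 and 56.5% for all such probe sets, so the higher median was not seen there. The 6 members ending in _x_at and Present on both arrays, which read ATP5F1C and ATP5MG alone, had a median of 0.72.

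**Figure D2:**
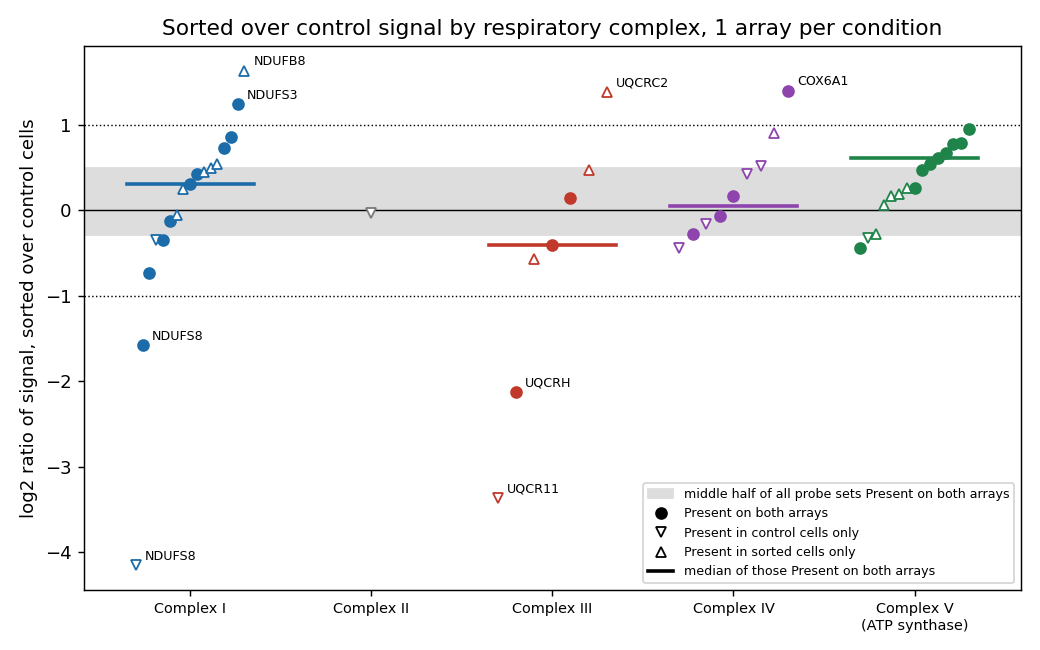
Log2 ratio of sorted over control signal (vertical axis) of each of the 49 members Present on at least 1 array, by complex (horizontal axis), with 1 point per probe set and the shape giving its detection call. Dotted lines mark 2-fold, the grey band the interquartile range of all probe sets Present on both arrays, and the 8 named points pass the 2-fold rule. The complex V points lie between -0.45 and 0.95.

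The nuclear subunit genes are widely described as sharing binding motifs for the transcription factors NRF1, GABP (also called NRF-2) and YY1, and rat promoter sequences from RefSeq (build GRCr8) were searched for them as background to the members. The sequences run from 250 bases before to 50 bases after 1 start position taken for each gene. For some genes, Cox7a1, Cox7a2 and Atp5f1d among them, it lies away from the gene's outer end, so the motif shares depend on the start taken. Of the 81 subunit symbols, 71 matched 1 rat promoter by symbol. The letters searched, on both strands, were GCGCANGCG for NRF1, CCGGAAG for GABP and AAGATGGCG for YY1. NRF1 letters were found in 19 of the 71 (26.8%), against 5.80% of all 33469 rat promoters and 7.62% of the 21851 protein-coding ones. GABP letters were found in 20 (28.2%), against 8.75% and 10.7%. YY1 letters were found in 10 (14.1%), against 1.73% and 2.07%. At least 1 of the 3 was held by 41 of 71 (57.7%), against 14.5% and 18.1%, and matches of different motifs overlapped in 0 of the 71. Among members with a Present probe set the share with at least 1 motif was 17 of 30 (56.7%) and among the others 24 of 41 (58.5%). By single motif, the shares of detected and undetected members were 33.3% and 24.4% for GABP, 23.3% and 29.3% for NRF1, and 13.3% and 14.6% for YY1. Having at least 1 motif therefore marked detected and undetected members about equally often, while the single motifs differed in direction, and no test was made. A match is a run of letters, not evidence of binding.

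Promoters are shown for 4 members that passed the 2-fold rule and hold a match, and for ATP5MC3, both of whose Present probe sets were higher by less than 2-fold. Capitals mark the matched letters, and each sequence is written 5′ to 3′ on the strand of its gene. Ndufs8 lies at chr1:210573649-210573948 on the minus strand, Uqcrh at chr5:134790833-134791132 on the minus strand and Uqcrc2 at chr1:184598990-184599289 on the plus strand, and all 3 hold GABP letters. Ndufb8, at chr1:253362887-253363186 on the minus strand, holds YY1 letters, and Atp5mc3, at chr3:79220615-79220914 on the minus strand, holds NRF1 letters.
Ndufs8: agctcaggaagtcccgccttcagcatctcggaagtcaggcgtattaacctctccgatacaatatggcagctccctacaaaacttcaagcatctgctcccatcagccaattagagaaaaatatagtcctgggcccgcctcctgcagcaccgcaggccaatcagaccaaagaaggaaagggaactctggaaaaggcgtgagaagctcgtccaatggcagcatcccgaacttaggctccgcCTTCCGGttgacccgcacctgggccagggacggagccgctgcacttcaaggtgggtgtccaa
Uqcrh: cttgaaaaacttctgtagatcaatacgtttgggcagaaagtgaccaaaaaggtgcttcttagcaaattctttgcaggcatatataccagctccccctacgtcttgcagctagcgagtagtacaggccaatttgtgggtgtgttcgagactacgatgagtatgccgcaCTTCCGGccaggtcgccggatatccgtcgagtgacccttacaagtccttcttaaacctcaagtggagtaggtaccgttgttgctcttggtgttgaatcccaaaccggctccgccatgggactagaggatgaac
Uqcrc2: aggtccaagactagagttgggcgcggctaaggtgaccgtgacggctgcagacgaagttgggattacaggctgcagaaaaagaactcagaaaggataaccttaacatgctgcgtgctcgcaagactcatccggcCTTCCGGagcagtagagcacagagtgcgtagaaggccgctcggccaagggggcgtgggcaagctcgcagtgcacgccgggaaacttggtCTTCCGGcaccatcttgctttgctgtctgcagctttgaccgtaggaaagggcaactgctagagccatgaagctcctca
Ndufb8: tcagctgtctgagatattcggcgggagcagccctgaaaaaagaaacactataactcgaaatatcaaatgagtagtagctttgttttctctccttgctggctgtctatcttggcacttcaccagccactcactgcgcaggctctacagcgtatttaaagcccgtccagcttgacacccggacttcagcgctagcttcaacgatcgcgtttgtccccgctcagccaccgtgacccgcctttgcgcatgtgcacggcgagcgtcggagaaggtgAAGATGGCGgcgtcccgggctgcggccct
Atp5mc3: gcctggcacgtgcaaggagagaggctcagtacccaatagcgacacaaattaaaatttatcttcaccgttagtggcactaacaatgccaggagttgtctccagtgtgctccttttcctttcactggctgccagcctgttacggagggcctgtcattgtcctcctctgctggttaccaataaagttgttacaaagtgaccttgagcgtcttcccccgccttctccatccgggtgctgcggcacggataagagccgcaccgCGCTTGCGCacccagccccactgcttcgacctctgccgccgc
The GABP letters stood in promoters of members from either direction, UQCRC2 among the higher and NDUFS8 and UQCRH among the lower. The promoter of Ndufs3 held none of the 3 motifs.

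Complex I was represented by 13 subunit genes with a Present probe set of 35. Its core carries the flavin and iron-sulfur clusters that move electrons from NADH to ubiquinone. NDUFS8, which binds iron-sulfur clusters on the way to ubiquinone, gave the lowest log2 ratio of the 49 detected probe sets. Its probe sets are annotated together with the microRNA genes MIR7113 and MIR4691. Probe set 203190_at was Present on both arrays, at 15089 in control cells and 5045 in sorted cells, a log2 ratio of -1.58. Probe set 203189_s_at was Present at 4320 in control cells and Absent at 244 in sorted cells, 17.7-fold lower by signal. The third probe set, 232169_x_at, was Absent on both arrays at 252 and 580, so it gave no measured level. NDUFS8 was the only member gene with a pair of probe sets past the rule.

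NDUFS3, another core subunit of the arm that faces the matrix, went the other way. Its probe set 201740_at was Present on both arrays, at 1602 in control cells and 3785 in sorted cells, a log2 ratio of 1.24. A second probe set, 223808_s_at, shared with PTPMT1, was Absent on both arrays at 113 and 199. The other core subunits with a Present probe set differed by less than 2-fold. NDUFV2, an iron-sulfur subunit of the NADH-oxidising end, had 3297 (Marginal) in control and 4793 (Present) in sorted cells, with a log2 ratio of 0.54. NDUFS1, the largest iron-sulfur subunit, was Absent at 840 and Present at 995 at 203039_s_at, with 0.24. Its 4 other probe sets were Absent on both arrays, and their log2 ratios, from -2.46 at 236356_at to 0.42 at 235321_at, carry no detected signal. Core subunits of complex I thus lay on both sides, with NDUFS3 higher, NDUFS8 lower and NDUFV2 and NDUFS1 within 2-fold.

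Among the accessory subunits of complex I, NDUFB8, part of the membrane arm, was read by 3 probe sets that disagreed. Probe set 201227_s_at was Present on both arrays, at 6804 in control cells and 12280 in sorted cells, a log2 ratio of 0.85. Probe set 214241_at was Absent at 275 and Present at 852, 3.09-fold higher by signal. Probe set 201226_at was Marginal at 1926 and Present at 1856, with a log2 ratio of -0.05. The call of NDUFB8 as higher rests on 214241_at, which was not detected in control cells.

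The remaining accessory subunits of complex I lay within 2-fold. NDUFB9 (0.73, 3402 in control cells and 5648 in sorted cells), NDUFA12 (0.42, 4444 and 5942) and NDUFA6 (0.31, 2731 and 3378 at 202001_s_at) were Present on both arrays and had log2 ratios above 0. NDUFS4, whose loss causes a complex I deficiency, was close to equal at 1349 and 1232, with -0.13. NDUFB11, encoded on the X chromosome in humans, was Present on both arrays at 1637 and 987, with -0.73. NDUFA2 (0.44 at 209224_s_at) and NDUFA10 (0.49 at 230501_at) were detected in sorted cells alone, and NDUFB5 (-0.35) was Present in control cells and Marginal in sorted cells. Their other probe sets were Absent on both arrays, with log2 ratios of -4.20 and -1.86 for NDUFA2 and from -1.87 to 0.77 for NDUFA10. The 22 subunit genes of complex I without a Present probe set were NDUFA1, NDUFA3, NDUFA5, NDUFA7, NDUFA8, NDUFA9, NDUFA11, NDUFA13, NDUFB1, NDUFB2, NDUFB3, NDUFB4, NDUFB6, NDUFB7, NDUFB10, NDUFC1, NDUFC2, NDUFS5, NDUFS6, NDUFS7, NDUFV1 and NDUFV3. Over the 9 probe sets of complex I Present on both arrays, 1 of them the antisense transcript NDUFV2-AS1 at -0.35, the median was 0.31 with a range of -1.58 to 1.24, but it turned to -0.24 over the gene-specific probe sets alone. The direction of complex I as a group was thus set by which probe sets were counted.

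Complex II, succinate dehydrogenase, also belongs to the citrate cycle. Its flavoprotein subunit SDHA was Present at 2579 in control cells and Absent at 2519 in sorted cells at 201093_x_at, a log2 ratio of -0.03. The signals were nearly equal, and the calls alone differed. A second SDHA probe set, shared with SDHA pseudogenes, was Absent on both arrays with -1.30. The membrane anchors SDHC and SDHD, read by 7 and 2 probe sets, were Absent on both arrays throughout.

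Complex III, the cytochrome bc1 complex, had the members that stood farthest apart beside NDUFS8. UQCRH, the hinge protein that helps cytochrome c1 meet cytochrome c, was read by 202233_s_at, which is annotated also to UQCRHL. It was Present on both arrays, at 7791 in control cells and 1784 in sorted cells, a log2 ratio of -2.13. UQCR11, a small subunit, was Present at 1267 in control cells and Absent at 124 in sorted cells at 202090_s_at. With the sorted signal set at 159, the lowest of any Present probe set there, UQCR11 was 7.96-fold lower. The floor on dim signals used below gave UQCR11 a log2 ratio of -2.42, a smaller difference, so 7.96 is not a lower limit. Its second probe set, 223613_at, was Absent on both arrays at 1860 and 570, with -1.71. UQCRC2, a core protein without a redox centre, was Absent at 1228 in control cells and Present at 3192 in sorted cells at 200883_at. UQCRC2 was thus 2.60-fold higher by signal there. Its other probe sets were Absent on both arrays, with 1.61 at 212600_s_at and -1.13 at 241755_at. Small subunits were the lower ones here and a core protein the higher one.

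The other detected genes of complex III lay within 2-fold. UQCRB, which lies near the ubiquinone site, was Present on both arrays at 3980 and 4405 at 205849_s_at, with 0.15. Its probe set 209066_x_at was Marginal at 1161 and Present at 779, with -0.58, and 244293_at was Absent at 273 and Present at 379, with 0.47. The fourth, 209065_at, was Absent at 184 and Marginal at 421, with 1.20. UQCR10 was Present on both arrays at 1223 and 922 at 218190_s_at, with -0.41, and its other probe set was Absent on both arrays with -2.27. The 3 probe sets of complex III Present on both arrays had a median of -0.41, and no gene-specific probe set was among them. UQCRC1, UQCRQ and CYC1, the gene of cytochrome c1, were Absent on both arrays, as were the 3 probe sets of CYCS, the gene of cytochrome c itself.

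Complex IV, cytochrome c oxidase, surrounds its mitochondrially encoded catalytic core with nuclear subunits, several of which exist as a common and a tissue-restricted isoform. COX6A1, the isoform common outside muscle, was the complex IV member past the rule. Probe set 224344_at was Present on both arrays, at 2541 in control cells and 6682 in sorted cells, a log2 ratio of 1.39. The second COX6A1 probe set, 200925_at, was Absent on both arrays at 235 and 154, with -0.61. COX5B was lower by less than 2-fold at both Present probe sets, from 3302 to 2722 at 213735_s_at (-0.28) and from 1640 to a Marginal 1208 at 202343_x_at (-0.44). COX6C was Present on both arrays at 1337 and 1502, with 0.17. COX8A was Present at 2522 and Absent at a higher signal of 3368, and COX4I1 Present at 1538 and Absent at 1373 at 202698_x_at, with -0.16. The remaining COX4I1 probe sets ranged from -1.52 at 227323_at to 0.40 at 200086_s_at and were Present on neither array. The median over the 4 complex IV probe sets Present on both arrays was 0.05, and it was -0.06 after centring on all probe sets Present on both arrays, so its sign depended on the scaling. COX5A, COX6B1, COX7A2, COX7A2L, COX7B and COX7C had no Present probe set.

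Of 6 isoforms of complex IV known for restricted tissues, 3 had a Present call. COX4I2, described in lung and in the response to low oxygen, was Present on both arrays at 1423 and 1357, with -0.07. COX6A2, the heart and skeletal muscle isoform, had 1845 (Present) in control and 2632 (Marginal) in sorted cells, with 0.51. COX7B2, described in testis, was Absent at 361 and Present at 673, with 0.90. COX7A1, COX6B2 and COX8C were Absent on both arrays. Of 6 striated muscle genes listed beside them, MYH7, ACTA1, CKM, TNNT1, MB and DES, 0 of 7 probe sets were Present on either array, and their signals summed to 2030 on the control and 2563 on the sorted array. Whether COX6A2 and the other probe sets for isoforms bound another rat transcript was not tested.

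Complex V had no member past the 2-fold rule, and 8 of its 9 probe sets Present on both arrays had a higher signal in sorted cells. These 9 probe sets read 4 genes, so they are not 9 separate measurements of the complex. ATP5F1C encodes the rotating central shaft of the F1 head. Its control and sorted signals were 10962 and 18702 at 205711_x_at (log2 ratio 0.77), 7039 and 11218 at 208870_x_at (0.67), and 18114 and 31171 at 213366_x_at (0.78). The 3 probe sets gave nearly the same ratio, though the _x_at type may share probes. The fourth, 214132_at, was Absent on both arrays with -1.35. ATP5MG, a small subunit of the membrane part, was also Present on both arrays at 3 probe sets, with 4410 and 8513 at 207573_x_at (0.95), 13070 and 19056 at 210453_x_at (0.54), and 13986 and 16760 at 208746_x_at (0.26). Probe set 208745_at was Absent on both arrays with -0.73.

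The c ring, which turns as protons cross the membrane, is built from 1 mature protein that ATP5MC1, ATP5MC2 and ATP5MC3 each encode with a different targeting sequence. ATP5MC3 was Present on both arrays, with 107212 and 148812 at 207508_at (0.47), and at 14846 and 22649 at 207507_s_at (0.61). ATP5MC1 went the other way, with 7437 and 5460 at 208972_s_at (-0.45). ATP5MC2 was Absent at 1778 and Present at 1999 at 207552_at (0.17). A second ATP5MC2 probe set, 208764_s_at, had a log2 ratio of 3.95 but was Absent on both arrays, and the third ATP5MC3 probe set, 228168_at, was Absent with -1.93. The genes of the c ring thus did not share a direction, ATP5MC3 being higher and ATP5MC1 lower by less than 2-fold.

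Other subunits of the ATP synthase lay closer to equal signals. ATP5F1B, the catalytic subunit of the head, was Absent at 12745 in control cells and Present at 13342 in sorted cells, with 0.07. ATP5F1D was Marginal at 1756 and Present at 2003 at 213041_s_at (0.19), and ATP5PB, of the outer stalk, Absent at 526 and Present at 629 at 243501_at (0.26). ATP5F1E was Present at 672 and Absent at 535 at 217801_at (-0.33). For the last 3 genes further probe sets were Absent on both arrays, with 1.64 for ATP5F1D at 203926_x_at, -0.22 for ATP5PB and 2.65 for ATP5F1E at 230535_s_at. The median of complex V over the probe sets Present on both arrays was 0.61, with a range of -0.45 to 0.95, and it was 0.22 over all 42 probe sets with no call required. ATP5F1A, ATP5PO, ATP5PD, ATP5PF, ATP5ME, ATP5MF, ATP5MJ and ATP5MK had no Present probe set.

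**Figure D3:**
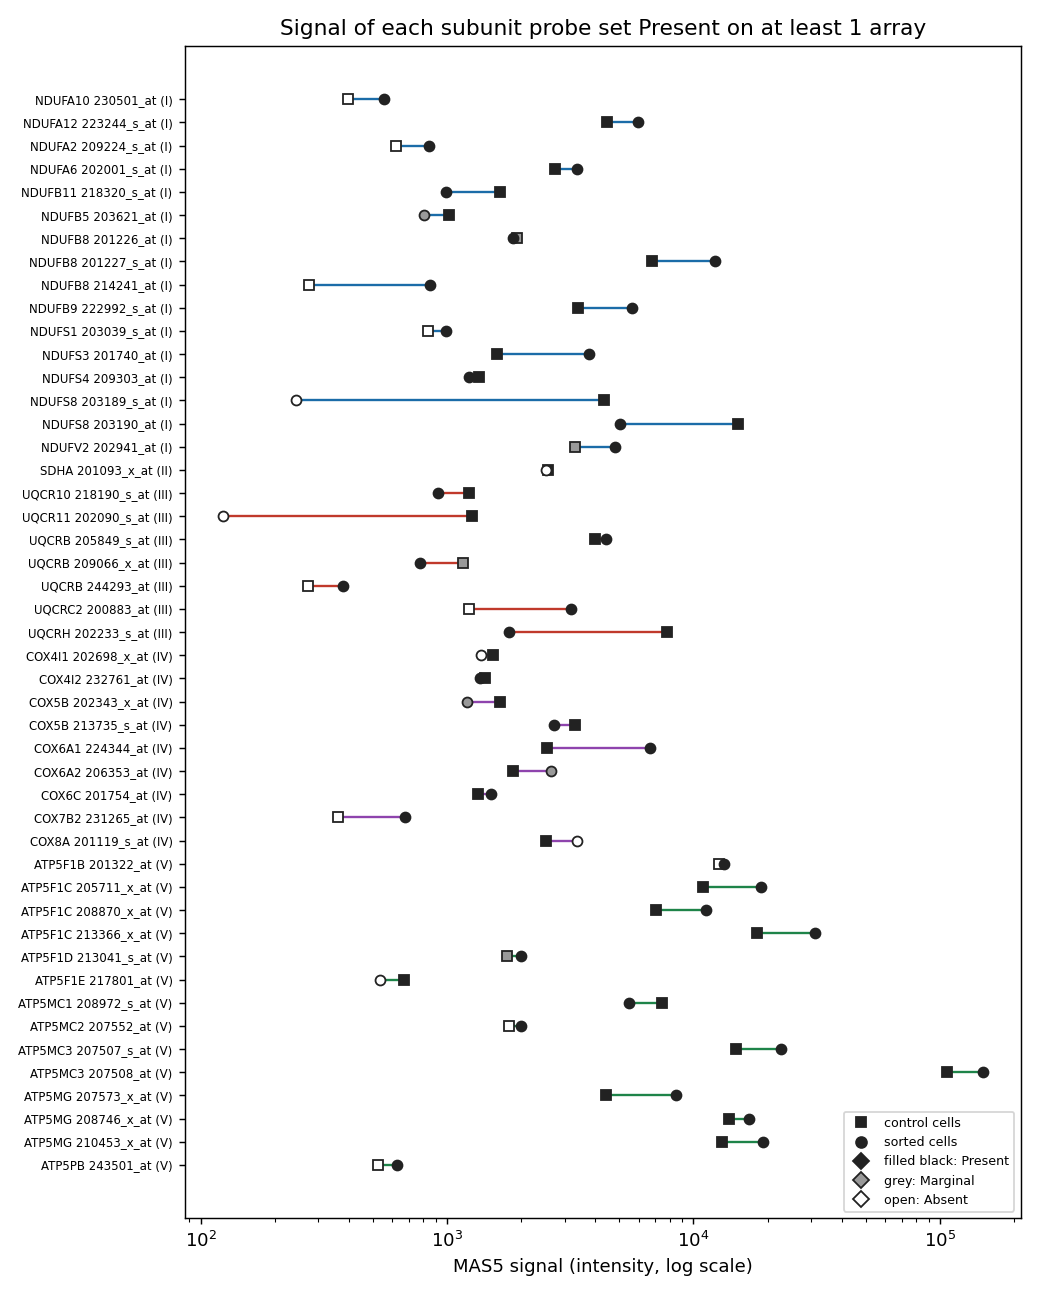
MAS5 signal (horizontal axis, log scale) of each of the 47 subunit probe sets Present on at least 1 array, in control cells (squares) and sorted cells (circles), from 1 array each, with the complex in brackets. Fill gives the detection call. The ATP5F1C, ATP5MC3 and ATP5MG circles lie to the right of their squares, and those of NDUFS8, UQCR11 and UQCRH far to the left.

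Genes read by several Present probe sets give a view of the measurement error. There were 7 such subunit genes, and the spread of the log2 ratio between their Present probe sets had a median of 0.69. It was 0.11 for ATP5F1C, 0.14 for ATP5MC3, 0.16 for COX5B and 0.69 for ATP5MG, but 1.05 for UQCRB, 1.68 for NDUFB8 and 2.57 for NDUFS8. Probe sets Present on at least 1 array were counted here. The spreads of UQCRB, NDUFB8 and NDUFS8 each rest on a probe set Absent on the other array. For ATP5F1C, ATP5MC3 and ATP5MG all the probe sets counted were Present on both arrays, and the largest spread was 0.69. The sign was the same at all Present probe sets for 5 of the 7, and differed for NDUFB8 and UQCRB. The spread between probe sets of 1 gene was therefore as large as many of the differences reported for single genes. In 21 of the 36 detected subunit genes at least 1 further probe set was Absent on both arrays.

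**Figure D4:**
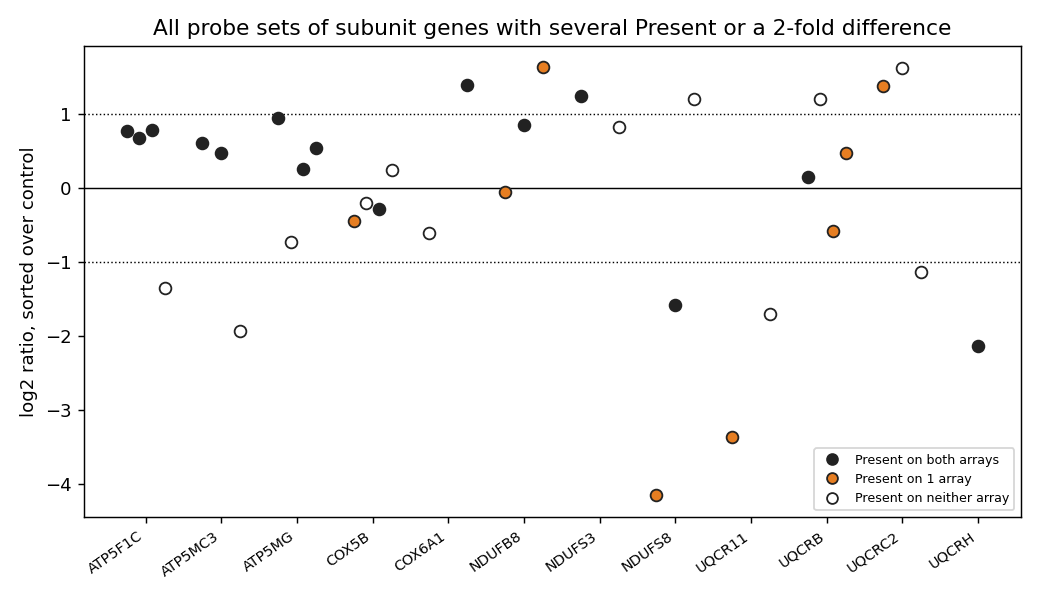
Log2 ratio of sorted over control signal (vertical axis) of every probe set of the 12 subunit genes that have several Present probe sets or pass the 2-fold rule (horizontal axis), with 1 point per probe set and the fill giving how many arrays called it Present. Dotted lines mark 2-fold. Present probe sets lie together for ATP5F1C, ATP5MC3 and COX5B and apart for NDUFB8, NDUFS8 and UQCRB.

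Genes that serve the same complexes without being listed members gave a mixed picture. Of 50 assembly factor genes, which insert cofactors and join the subunits, 11 had a Present probe set, 2 were higher and 2 were lower. By probe sets, 12 of 95 were Present (12.6%, against 12.5% of the array), and 2 of these 12 (16.7%) passed the rule in each direction, against 12.9% and 14.1%, so the counts lay near the background. COX16, a factor of complex IV, was Absent at 277 and Present at 1140, 4.12-fold higher by signal. HCCS, which attaches haem to cytochromes c and c1, was Absent at 192 and Present at 613 at 203745_at, 3.20-fold higher by signal. A second HCCS probe set had a log2 ratio of 3.95 and was Absent on both arrays. TTC19, a factor of complex III, was Present at 1350 and Absent at 264, 5.11-fold lower by signal. NDUFAF6, a factor of complex I, was Present on both arrays at 838 and 331 at 235509_at, with a log2 ratio of -1.34. A second NDUFAF6 probe set, Absent on both arrays, had 2.23. NDUFAB1, a complex I subunit whose symbol the naming rule does not take in, was Present on both arrays at 1658 and 1641. Of the subunits encoded in mitochondrial DNA, 7 genes had a probe set, and 6 of them had no Present call. By probe sets, 1 of 10 was Present (10%, against 12.5% of the array). It read ND4 and was Present on both arrays at 725 and 879, with 0.28.

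Of 18 regulators of mitochondrial biogenesis, 6 had a Present probe set, 2 were higher and 1 was lower. By probe sets, 7 of 48 were Present (14.6%, against 12.5% of the array), and the 2 and 1 of 7 that passed the rule are too few to set apart from 12.9% and 14.1%. ESRRA, a nuclear receptor that acts with the PGC-1 coactivators, was Present on both arrays at 4638 and 10543 at 1487_at, with 1.18, while 203193_at was Absent on both arrays with -0.27. PPARGC1B, the coactivator PGC-1 beta, was Absent at 233 and Present at 1077 at 232181_at, 4.62-fold higher by signal. The other PPARGC1B probe sets were Absent on both arrays with -0.80 to 0.84. NRF1 was Present at 959 and Absent at 458 at 204651_at, 2.10-fold lower by signal, with further probe sets Absent on both arrays from -1.24 to 1.80. The genes of the 3 factors whose motifs were searched were all detected. YY1 was Present on both arrays with 0.58 at 200047_s_at and 0.50 at 201901_s_at. Its other probe sets were Absent on both arrays, from -2.44 at 201902_s_at to 1.17 at 213494_s_at. GABPA was Present at 776 and Absent at 410 (-0.92), and GABPB1 was Absent at 415 and Present at 672 (0.70). A further probe set of each was Absent on both arrays, with -3.57 for GABPA and 1.71 for GABPB1. Of the genes of these factors, NRF1 alone passed the rule. Genes that carry substrates of the ATP synthase lay below 2-fold. SLC25A4, which exchanges ADP for ATP, was Present on both arrays at 10857 and 21530 at 202825_at, with 0.99, SLC25A5 was Present at 161048 and Marginal at 298341, with 0.89, and the phosphate carrier SLC25A3 was Present on both arrays at 16879 and 24405, with 0.53. Over the whole list of carriers and channels, 3 of 6 probe sets Present on both arrays were above 0, with a median of 0.14. In the outer membrane channels the signs differed, with 0.83 for VDAC1, -0.78 for VDAC2 and -0.81 to -0.10 for VDAC3.

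Markers of 3 cell types were read, those of striated muscle above, and on human probes they cannot settle the identity of the samples. SDC1, the plasma cell antigen CD138, was Present on both arrays at 3390 and 4206 at 201287_s_at. Its other probe set, 201286_at, was Absent on both arrays with -1.18. PRDM1, a regulator of plasma cells, and MS4A1, a B cell antigen, were Present in control cells alone. PRDM1 went from 1850 to a Marginal 1113 at 217192_s_at. The Absent signal in sorted cells was the higher one at 228964_at of PRDM1 (483 and 528) and 228599_at of MS4A1 (474 and 561). Of 12 plasma and B cell genes, 9 had no Present probe set, JCHAIN and XBP1 among them. By probe sets, 4 of 26 were Present (15.4%, against 12.5% of the array). The signals of this list summed to 20245 on the control and 18725 on the sorted array. For 8 endothelial genes, VWF and PECAM1 among them, 0 of 15 probe sets were Present, with sums of 7054 and 4591.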

How the data were processed

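The authors deposited, for each array, an intensity (the MAS5 signal, from Affymetrix Expression Console, version not given in the sources used here), already background-corrected, summarised and scaled. After trimming 2% at each end, the mean signal was 500.0 on either array. The deposited detection p-value reached 0.0490 for Present probe sets and was used through the authors' call alone.  Without 62 Affymetrix control probe sets, 54613 remained. Symbols came from the array's annotation, and 160 member probe sets had 1 symbol and 15 had several.

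Log2 ratios were taken from the signals as deposited, in Python 3.11.15 with numpy 2.4.6 and pandas 2.3.3, and plotted with matplotlib 3.10.9. Where 1 array was Absent, a dim signal below the lowest Present signal of its array was raised to it for the fold. These lowest signals were 148 in control cells and 159 in sorted cells. Such a fold is not a lower limit, since far brighter signals were called Absent. The number of arrays, 1 per condition, limits the precision, no test was made, and array and condition cannot be told apart. Calculations were tested on simulated data. Members, gene lists and rules were chosen with earlier results of these data known. Genes named were all those with a Present probe set, and of other lists those past the 2-fold rule, with YY1, GABPA, GABPB1, SLC25A3, SLC25A4, SLC25A5, the VDAC genes, ND4, NDUFAB1, markers and the electron entry and antioxidant genes within 2-fold added after their values were seen. Rat promoters came from RefSeq (GRCr8), matched by symbol.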

Additional observations from a re-analysis of the deposited data

How the results depend on the processing

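No paired analysis was possible because each condition has 1 array, and for the same reason no array could be left out. Quantile normalization, a floor on dim signals, centring by the median of probe sets detected on both arrays (a shift of 0.11 on the log2 scale) and the series' value table left 4 members higher and 4 lower, and 0 of the 8 fell under 2-fold or changed sign. Of 196 values of single probe sets under these alternatives, 1 was over 0.33 away, where 0.33 is the SD of the hybridisation spikes: UQCR11, -3.36 as deposited and -2.42 with the floor. Most of these values could not have moved so far. The value table repeats the deposited signals to within 0.0005%, and centring shifts every ratio by 0.11. The floor reached UQCR11 alone, so quantile normalization was the main check of single values. A 4-fold rule left 0 higher members and 3 lower. With an Absent call required in the other sample, 2 were higher and 2 lower, and with no call required 32 and 33. The lower members were 1 with gene-specific probe sets, 1 with probe sets of 1 symbol, since UQCRH and NDUFS8 are read by probe sets with several, and 2 with genes at their brightest probe set. Detection on at least 1 array was found for 22 gene-specific probe sets, and for 25 probe sets if both arrays were required. The median of the members Present on both arrays, 0.31, was 0.20 with centring, 0.22 with quantile normalization and 0.05 with gene-specific probe sets. The median of complex I was -0.24 with gene-specific probe sets, that of complex IV -0.06 with centring, and that of complex V 0.22 with no call required and 0.50 with centring. Leaving out antisense, readthrough, pseudogene and inhibitor names, an alternative added after the data were seen, left both counts at 4. A spread between replicates could not be set beside any of these values.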

Other observations

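Electrons also enter the chain outside complexes I and II. Of 9 such genes with a probe set, ETFA and ETFDH, which pass electrons from fatty acid oxidation to ubiquinone, were Present on both arrays, with log2 ratios of -0.41 (8288 in control cells, 6244 in sorted cells) and -0.95 (1467 and 757). Both lay lower in sorted cells by less than 2-fold at these probe sets. A further ETFDH probe set, 205530_at, was Absent on both arrays with 0.64. DHODH, GPD2 and the others were not Present on either array. By probe sets, 2 of 21 on this list were Present (9.52%, against 12.5% of the array).

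Of 9 antioxidant genes, 4 had a Present probe set. By probe sets, 4 of 14 were Present (28.6%, against 12.5% of the array). Of these 4, 1 was lower and 0 higher by the rule, too few to set apart from 14.1% and 12.9%. SOD1 was Present on both arrays at 8398 and 12694, with 0.60, and GPX4 (-0.33) and PRDX3 (-0.95) were detected in sorted cells alone, although their signals were lower there. TXNRD2, the mitochondrial thioredoxin reductase, was Present at 835 and Absent at 382 at 210803_at, 2.19-fold lower by signal. The other TXNRD2 probe set, 211177_s_at, was Absent on both arrays with 0.42. Among 11 genes of cristae and supercomplexes, PHB1 was lower by the 2-fold rule at 200659_s_at (1498, Present, and 616, Absent) and near equal at 200658_s_at, Present on both arrays at 16322 and 16907. On that list 7 of 23 probe sets were Present (30.4%, against 12.5% of the array). Of these 7, 1 was lower (14.3%, against 14.1%) and 0 higher.

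Of the 14 probe sets with names other than subunits, 2 were Present: NDUFV2-AS1 on both arrays at 460 and 362, and the pseudogene ATP5MC2P1 in sorted cells, at 1403 and 1161. The 3 probe sets of ATP5IF1, the inhibitor of the ATP synthase, were Absent on both arrays.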
